A study of Mus musculus with 6 samples.

Results

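The 4 arrays described here, of 6 in the series, compared mouse embryonic stem (ES) cell clones B3 and C6 after 24 h without tetracycline with the same clones grown in its presence. The clones derived from the line EBRTcH3 and carried the human GTF2I open reading frame, in frame with a 3xFLAG epitope, at the ROSA26 locus under a tetracycline-repressible promoter. They were grown undifferentiated with leukemia inhibitory factor, and each gave 1 uninduced array (0 h) and 1 induced array (24 h) on an Affymetrix GeneChip mouse genome array. Titles name GTF2I as the transgene, whereas the genotype field of every sample names its relative GTF2IRD2. B3 and C6 were chosen from the measured values, because they moved together on induction and the remaining clone, A1 (2 arrays), moved the opposite way. Differences given for A1 take the time labels of its 2 arrays as deposited, and their sign rests on those labels, which the mouse probes could not check. The induced minus uninduced differences below are therefore a description, and the calls made on them only delimit a list of probe sets. Each line is 1 clone with 1 array per condition, and effects of the transgene and of tetracycline removal itself cannot be told apart, since no clone without the transgene was analysed here. In bulk RNA, fewer cells of a kind and less of an RNA per cell cannot be told apart either.

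TFII-I, the product of GTF2I, is a multifunctional transcription factor that carries several helix-loop-helix-like I-repeats. It binds initiator and E-box elements at promoters, and it shuttles to the cytoplasm in response to growth factor signals. GTF2I lies in the segment deleted in Williams-Beuren syndrome, together with its relatives GTF2IRD1 and GTF2IRD2.

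All values are log2 expression values obtained by robust multiarray average (RMA), a method that summarises the probes of each probe set after background correction and quantile normalisation. The lower quartile of the 4 arrays lay between 3.68 and 3.73, and values near it are dim. With the clone as a block, 981 of 45037 probe sets were called at an adjusted p below 0.05 by limma: 392 were higher in the induced arrays (0.87%) and 589 were lower (1.31%). Since the contrast chose the clones, nothing is read from these shares. The 2 induced values did not overlap the 2 uninduced values for 368 of the 392 and for 577 of the 589. Such separation is built in, because the same 4 values made the calls. Its share over all probe sets was not counted, so nothing is read from it. In clone A1, 360 of the 392 were lower after induction, and 576 of the 589 were higher. That opposite course helped choose the clones and was likewise not counted over all probe sets. These counts are therefore a description only. Adding the A1 arrays to the fit left 0 calls, with the clone block (847 probe sets at an unadjusted p below 0.05) or without it (436). Leaving A1 out but also dropping the block left 0 calls, with 3526 probe sets at an unadjusted p below 0.05.

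The called differences were of moderate size. The median was 0.63 for probe sets called higher and -0.67 for those called lower, and 53 and 67 of them, respectively, reached a difference of 1, which is a doubling or a halving. Clone C6 moved further than B3 in 75.4% of the probe sets called lower, with medians of -0.76 in C6 and -0.57 in B3. Among those called higher the medians of the clones were close, at 0.64 and 0.63. The medians in A1 were -0.43 and 0.51. Probe sets called higher were dimmer (median level 6.40) than those called lower (7.69), and both exceeded the median of all probe sets, 5.10. No gene symbol was paired with 24.0% of the probe sets called higher and with 6.11% of those called lower, against 20.3% of all. Just inside the threshold were Rps6kb2 (-0.50), Pias4 (-0.54) and B3gnt7 (-0.77), and just outside it Ppp2r5a (-0.54), Map2k2 (-0.57) and Gbx2 (-0.50).

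**Figure D1:**
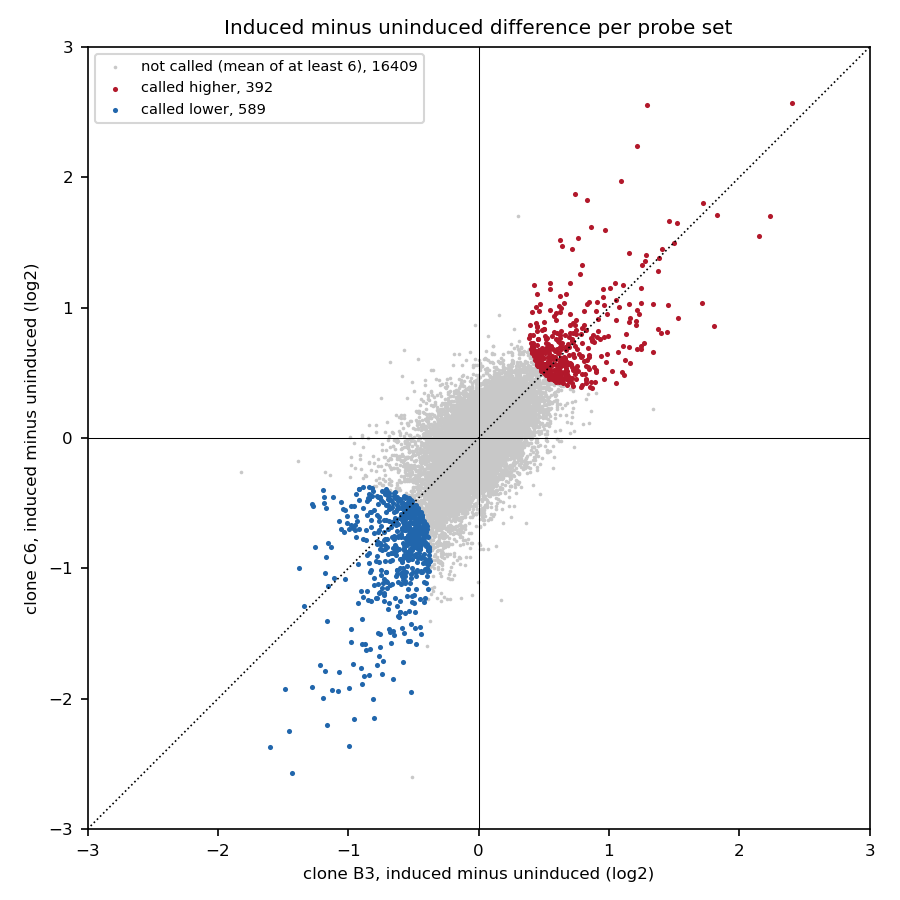
Induced minus uninduced difference (log2) of each probe set in clone B3 (horizontal) and clone C6 (vertical), for the 392 probe sets called higher (red), the 589 called lower (blue) and the 16409 that were not called and had a mean level of at least 6 (grey). The dotted line marks equal differences, and 75.4% of the blue points lie where C6 was further from 0 than B3.

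ES cell markers were bright on the 4 arrays, though Otx2 (7.35 to 7.93) and Dppa3 (7.50 to 8.80) were less so. The pluripotency factors Pou5f1, Nanog and Sox2 stood between 12.70 and 13.08, between 12.12 and 12.36, and between 12.32 and 12.38. Averaged over 30 ES cell markers, the level was 11.08 and 11.12 in the uninduced arrays and 10.96 and 11.06 in the induced ones. Of 16 fibroblast markers 6 reached a level of 6 on any array, and the list averaged 5.53 to 5.58 before and 5.44 to 5.48 after induction. Its collagen genes Col3a1 and Col1a1 stayed at or below 2.79 and 4.30, while Vim, at 10.67 to 11.01, and Fbln1, at 8.79 to 9.43, were bright. The means of 16 primitive endoderm markers were 5.90 to 5.98 in the uninduced and 5.90 to 5.93 in the induced arrays. Those of 14 trophectoderm markers were 5.37 to 5.41 and 5.40 to 5.48, and of 18 neuronal markers 6.55 to 6.66 and 6.52 to 6.61. All of these overlapped between the uninduced and the induced arrays. The ES cell and fibroblast means did not. Nor did that of 18 primed epiblast and early differentiation genes (5.89 to 5.94 and 5.85 to 5.88). Its gap was narrow, from 5.891 to 5.877, and 9 of these 18 genes reached a level of 6 on any array. With so few arrays per group such separation can arise by chance, and its share over other gene lists was not counted. Nothing is therefore read from the separation of these means. The part of such cell types in the differences below was not tested.

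Control probe sets for 18S ribosomal RNA moved with the same split of the clones. The 3′ probe set stood at 7.27 and 9.04 in B3 before and after induction, at 7.17 and 9.15 in C6, and at 7.76 and 6.67 in A1. Both induced arrays of B3 and C6 exceeded both uninduced ones by well over 1 unit, and the A1 pair ran the other way. The 24 probe sets of the bacterial polyadenylated spikes dap, lys, phe and thr were higher by less: 22 were higher in both B3 and C6, their mean differences ran from -0.27 to 0.66 with a median of 0.40, and the median in A1 was -0.03. The 6 probe sets of the hybridisation spike bioB moved by a median of 0.28 in B3, -0.04 in C6 and -0.33 in A1, and the 4 of cre by 0.08, -0.09 and -0.09. The 3′ minus 5′ difference of actin, a measure of RNA integrity, was 0.35 and 0.58 in B3 and 0.43 and 0.47 in C6. The part of the 18S signal, the spikes or RNA integrity in the gene differences was not tested.

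**Figure D2:**
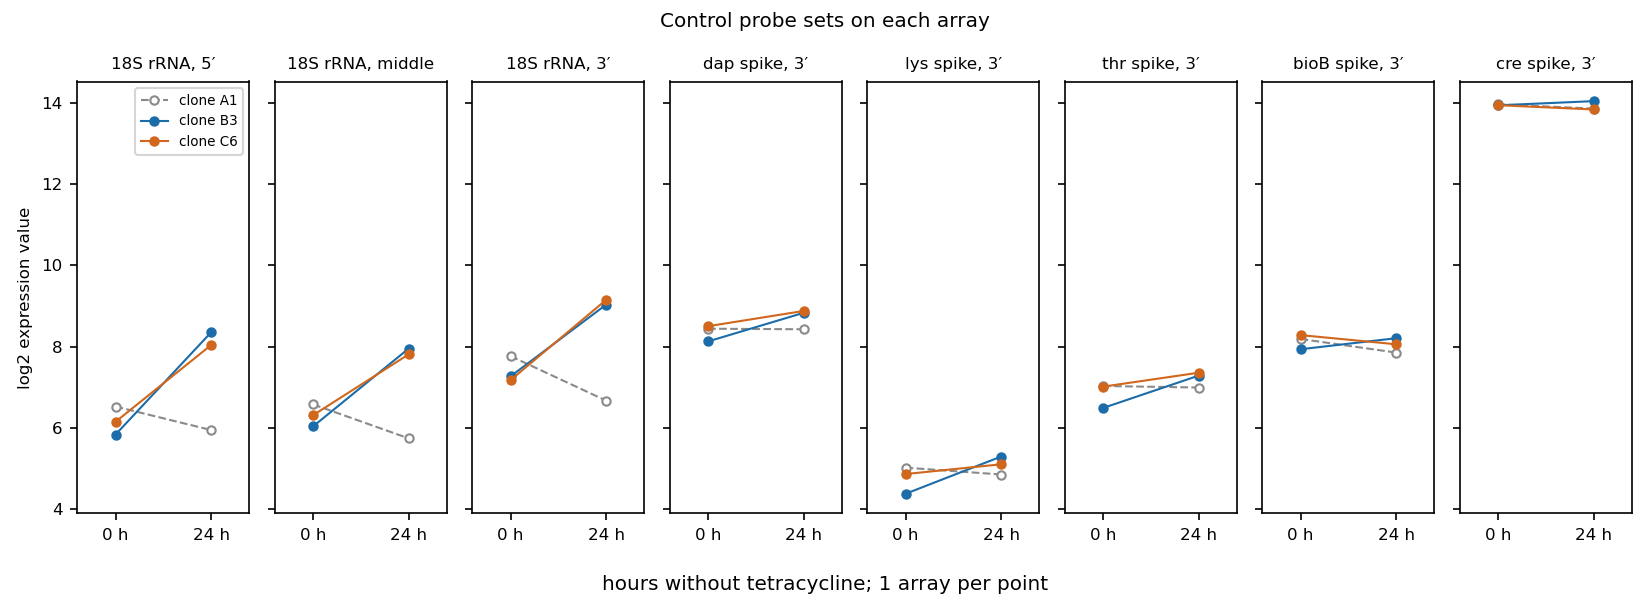
Log2 expression value of 8 control probe sets on each array, at 0 h (uninduced) and 24 h (induced) without tetracycline, with 1 array per point and clone A1 dashed. The 18S probe sets went up in B3 and C6 (3′ probe set, 7.27 to 9.04 and 7.17 to 9.15) and down in A1. The 3′ bioB probe set changed by 0.27 in B3, -0.23 in C6 and -0.34 in A1, and that of cre by 0.10, -0.11 and -0.11.

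Among genes, 264 of 18193 had at least 1 probe set called higher (1.45%) and 485 had at least 1 called lower (2.67%). Over the 9555 genes with a probe set at a mean level of 6 or more, a fairer base for expressed genes, the shares were 2.59% and 4.82%. Many of these calls belonged to 1 probe set of a gene and not to its others. The brightest probe set of the gene was itself the called one for 85 of the 264 genes and for 248 of the 485. In the genes called higher, 449 further probe sets had a mean level of 6 or more: 39.4% of them moved down, and their median difference was 0.06. Of 485 such probe sets in the genes called lower, 31.8% moved up, with a median of -0.14. In what follows a gene is called by any of its probe sets, and for most lists the number of calls carried by the brightest probe sets of their genes is given.

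The most strongly higher probe set belonged to Cbl, a ubiquitin ligase that sends receptor tyrosine kinases for degradation. It went from 6.25 to 8.66 in B3, from 6.01 to 8.58 in C6, and from 8.35 to 6.09 in A1. The brightest Cbl probe set, at a mean level of 8.93, differed by only 0.15. Malat1, an abundant nuclear noncoding RNA of splicing speckles, went from 5.19 to 7.43 in B3 and from 5.45 to 7.15 in C6, with -1.48 in A1. Tax1bp1, an autophagy receptor that binds ubiquitin, went from 5.24 to 6.46 and from 5.18 to 7.42, with -1.13 in A1, and its brightest probe set gave -0.01. Kdm5a, a histone H3 lysine 4 demethylase, went from 5.59 to 7.11 in B3 and from 5.55 to 7.20 in C6. Resf1, a factor of retroelement silencing in ES cells, went from 8.46 to 9.92 and from 8.14 to 9.80. Smc4, a core condensin subunit, was the brightest of these probe sets and went from 9.54 to 11.04 and from 9.53 to 11.02, with -1.58 in A1. In each of these genes both induced arrays lay above both uninduced ones, and A1 crossed in the opposite direction.

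Evi5, a regulator of Rab11 and cell division, gave 1.41 in B3 and 1.45 in C6 from its brightest probe set. Gatad2b, a subunit of the NuRD repressor complex, gave 1.71 and 1.04, also from its brightest. Sltm, an RNA-binding relative of SAFB, gave 1.38 in both clones. The kinase gene Wnk1 gave 1.53 and 0.92, and Smc6, of the SMC5/6 repair complex, 1.11 and 1.17. The phosphatase subunit Ppp2r2d (mean difference 1.24), the secretory cargo receptor Tmed7 (1.28), the SMN-associated Strap (1.29) and the unnamed transcript 4932431P20Rik (1.33) complete the 15 leading genes. All 15 moved the opposite way in A1. In 12 of the 15, the gene's brightest probe set was another one, none of these 12 was called, and their differences ran from -0.31 (Strap) to 0.23 (Malat1). The exceptions were Evi5, Gatad2b and 4932431P20Rik.

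The most strongly lower probe set belonged to Acer2, an alkaline ceramidase of the Golgi. It went from 7.52 to 6.08 in B3, from 8.13 to 5.56 in C6, and from 5.95 to 7.44 in A1. Zfp57, the KRAB zinc finger protein that maintains methylation at imprinting control regions, went from 10.18 to 8.59 and from 10.48 to 8.11, with 1.91 in A1. Pym1, which recycles exon junction complexes at the ribosome, went from 7.97 to 6.52 and from 7.98 to 5.73. Scaf1, a serine- and arginine-rich protein that binds the tail of RNA polymerase II, went from 8.42 to 7.42 and from 8.87 to 6.51. These genes were lower in both clones, further so in C6, and higher in A1.

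Polr2a, which encodes the largest subunit of RNA polymerase II, went from 11.06 to 9.85 in B3 and from 11.13 to 9.39 in C6, with 1.65 in A1. Both of its probe sets were called, and this one was the brighter. Fscn1, the actin-bundling protein fascin, went from 10.03 to 8.87 and from 9.74 to 7.55, with 0.64 in A1. A total of 3 of its 4 probe sets were called lower, whereas the brightest, at a mean level of 12.51, gave 0.19. Among the other leading genes were Septin1 (-1.60), the U2 snRNP subunit Sf3a2 (-1.59), the splicing regulator Raver1 (-1.53), the zinc finger factor Maz (-1.45), Zbed3 (-1.41), the histone demethylase Kdm5c (-1.39), the repair and proteasome adaptor Rad23b (-1.35), the cap-binding repressor Eif4ebp2 (-1.35) and the Polycomb-associated Epop (-1.33). In all 15 the difference was larger in C6 than in B3, and all 15 moved up in A1. Unlike the leading higher genes, 9 of these 15 were named by their brightest probe set, 7 of them because they have a single one. For Kdm5c the brightest of 9 probe sets gave 0.41, in the other direction.

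**Figure D3:**
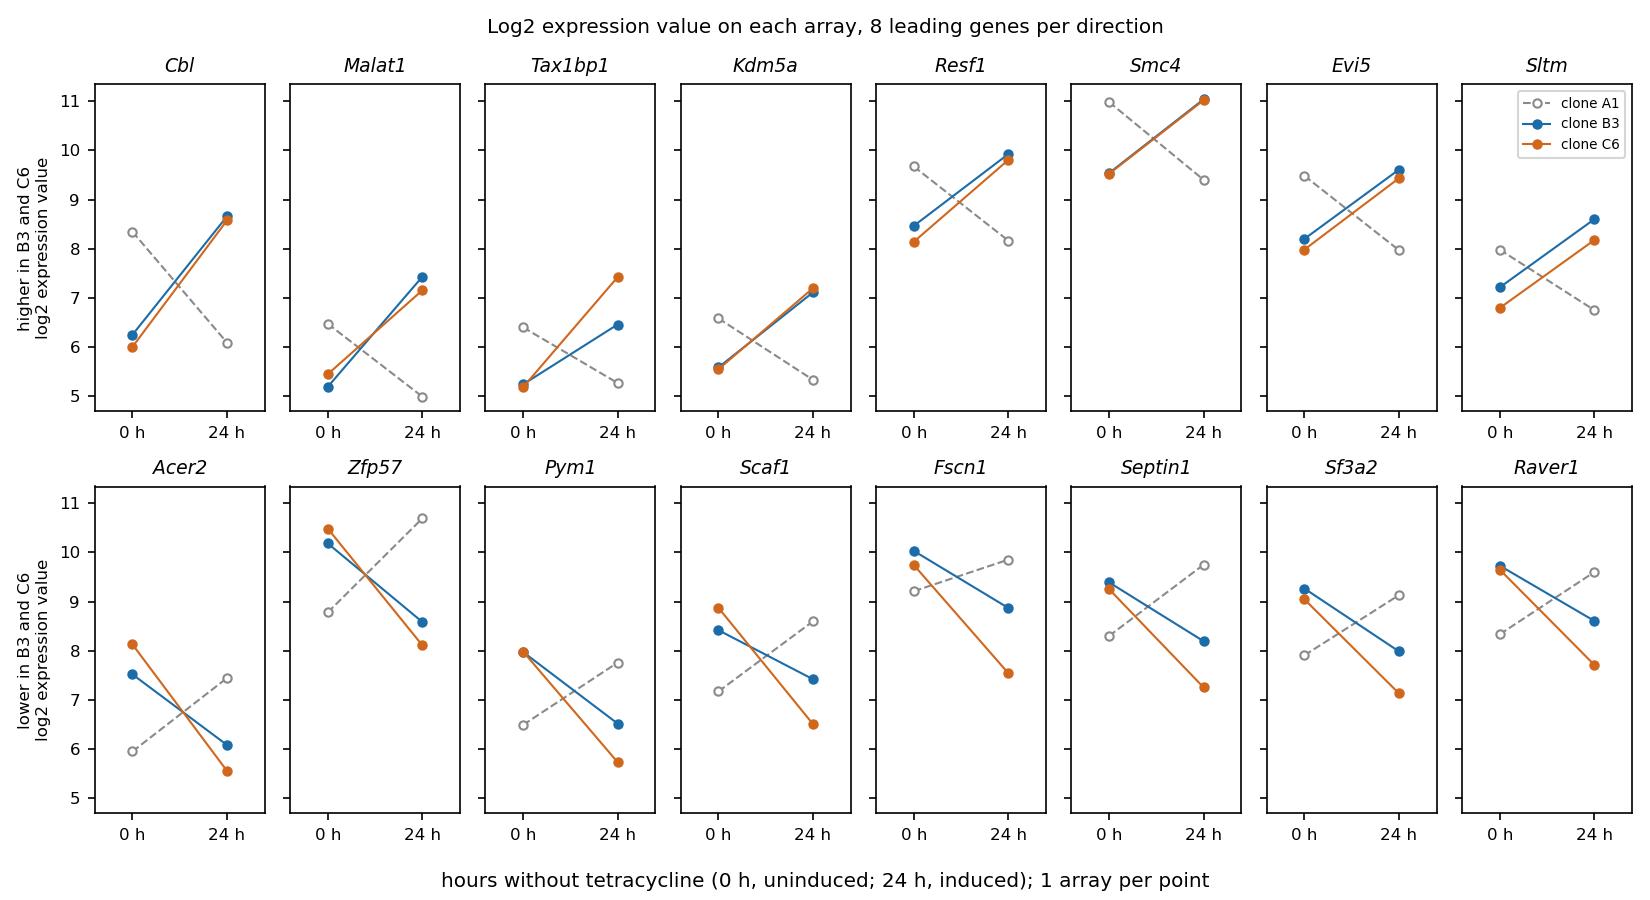
Log2 expression value of the named probe set on each array at 0 h and 24 h without tetracycline, for the 8 leading genes higher (top) and lower (bottom) in clones B3 (blue) and C6 (orange), with 1 array per point. In every panel clone A1 (grey, dashed) crosses B3 and C6, for example Cbl from 8.35 to 6.09 against 6.25 to 8.66 in B3.

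Promoter sequence (RefSeq, build GRCm38.p6, 250 bases before to 50 after the annotated start) was matched for 200 of the 264 genes called higher and 405 of the 485 called lower. Median promoter GC content was 62.5% and 64.7%, against 61.7% for genes with a probe set at a mean of 6 or more. The TATA element TATAAA, searched on both strands, occurred in 7.50% and 4.44% of these promoters, against 6.28% for expressed genes and 14.2% of all 27025 RefSeq promoters. The E-box CACGTG, which is its own reverse complement and a motif bound by TFII-I's partner USF, occurred in 12.5% and 9.88%, against 10.9% for expressed genes and 7.24% of all. The GC box GGGCGG was found in 73.0% and 73.3%, against 67.7% and 35.9%. The pentamer CCAAT was found in 43.0% and 39.5%, against 39.2% and 37.9%, and the octamer ATGCAAAT in 1.50% and 1.48%, against 1.30% and 1.75%. None of these shares was tested. Within the window from 40 to 11 bases before the start, where a TATA box usually lies, TATAAA stood in 2 of the 13 leading lower genes with a promoter and in 0 of the 11 leading higher ones. Fscn1 (chr5:142960315-142960344, plus strand) and Polr2a (chr11:69758644-69758673, minus strand) held it. Their windows are shown with TATAAA in capitals, beside the same window of Cbl (chr9:44234057-44234086, minus strand) and Evi5 (chr5:107869059-107869088, minus strand), which are leading higher genes without it.
Fscn1: tcatcctccTATAAAaccctgggcgccgcc
Polr2a: gcgaatcTATAAAgggcgtcactcagccag
Cbl: gcttgcccgtctccggcgcgcgcccccgcg
Evi5: gccggggctctttaaggccctcgccgcgcc

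Genes called higher were longer at the median. Their median genomic length was 43.7 kb (quartiles 21.0 and 85.7 kb, 262 genes), against 23.4 kb for the 485 genes called lower and 22.8 kb for genes with a probe set at a mean of at least 6. This comparison is descriptive, as the contrast chose the members. Probe sets whose name ends in _a_at, meant for several transcripts of 1 gene, made up 24.3% of those called lower, 11.7% of those called higher and 9.62% of the rest.

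Functions of the called genes were read from 43 gene lists and 40 symbol families, which together hold 3990 of the measured genes and 251 of the 742 genes called either way. Over all genes the median difference of the brightest probe sets was 0.00. Shares of a list called are over all its measured genes, and the base counted in the same way is 1.45% higher and 2.67% lower. Where most members of a list are expressed, the 2.59% and 4.82% of expressed genes called higher and lower are the stricter reference. Neither reference adjusts for the number of probe sets per gene.

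**Figure D4:**
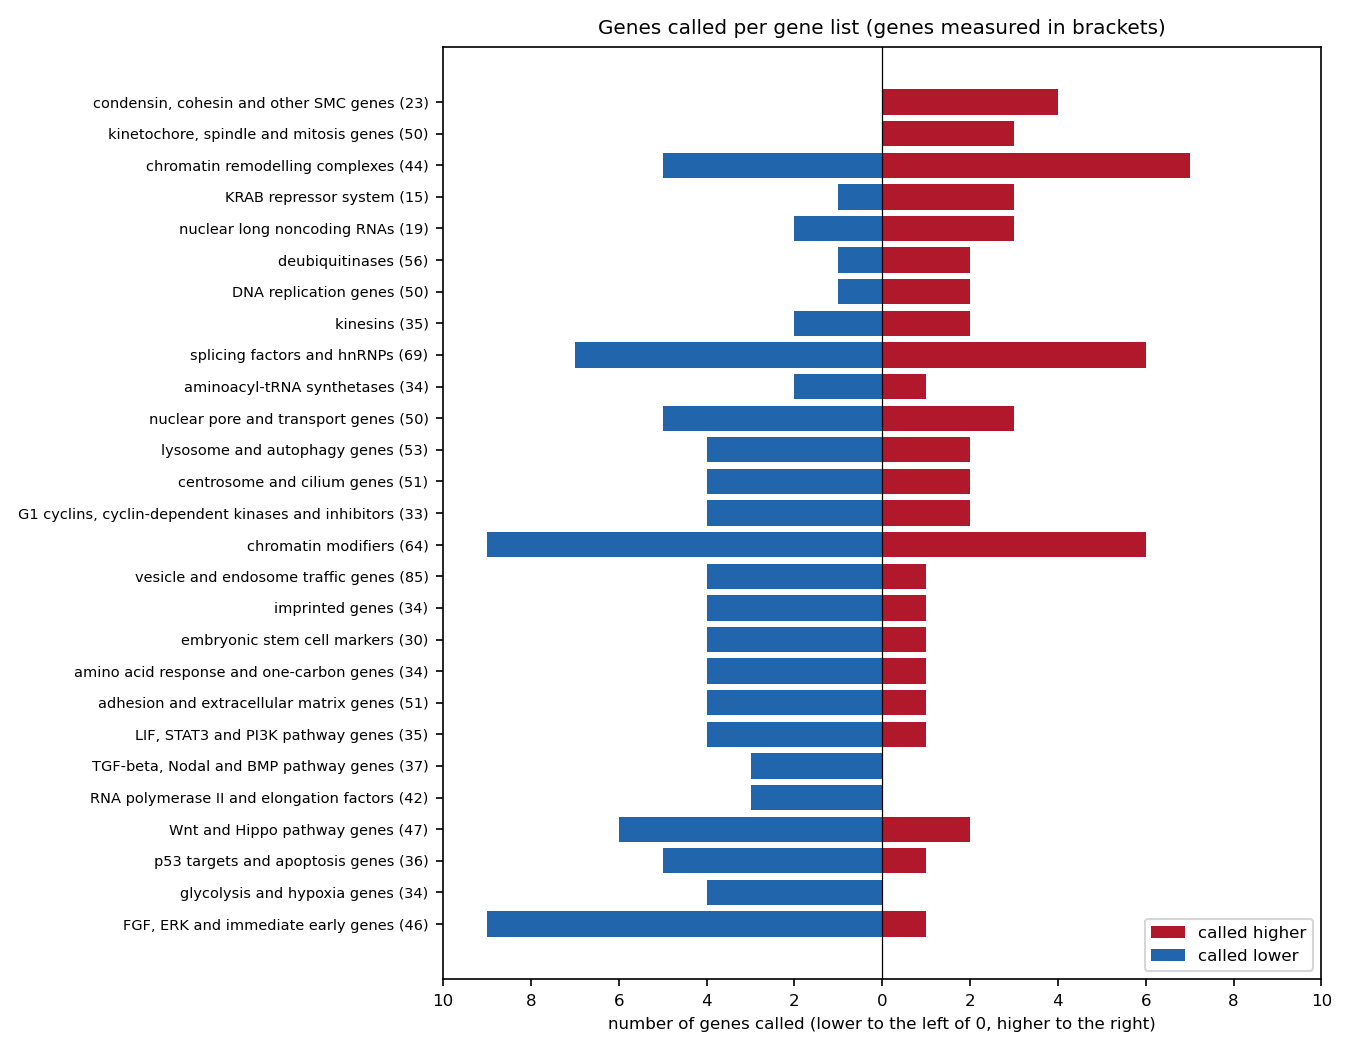
Number of genes with a probe set called lower (blue, left of 0) or higher (red, right of 0) in the induced arrays of clones B3 and C6, for the gene lists with at least 3 called genes, less 1 list that is not reported. The number of measured genes stands in brackets, and the lists run from 4 higher and 0 lower (condensin, cohesin and other SMC genes, top) to 1 higher and 9 lower (FGF, ERK and immediate early genes, bottom).

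Among chromosome structure and division genes most of the genes were not called. Of 23 condensin, cohesin and other SMC genes 4 were higher (17.4%) and 0 lower, with a list median of 0.11. Besides Smc4 and Smc6 these were Smc2, the other condensin core subunit (6.45 to 7.61 in B3, 6.84 to 7.87 in C6, -0.92 in A1), and Nipbl, the cohesin loader (7.87 to 9.08, 7.68 to 8.55, -1.16 in A1). Of 50 kinetochore, spindle and mitosis genes 3 were higher and 0 lower. The kinetochore scaffold Knl1 went from 3.35 to 5.50 and from 3.65 to 5.20, and the kinetochore motor Cenpe from 3.42 to 5.14 and from 3.23 to 5.04. Both uninduced values of these 2 genes lay at or below the lower quartile of the arrays, so their uninduced levels are dim. The spindle pole gene Aspm gave 0.68. None of these 7 calls came from the brightest probe set of its gene. The centrosomal scaffold Akap9, also dim at 3.80 and 3.96 before induction, gave 1.77, in a list of 51 centrosome and cilium genes with 2 higher and 4 lower. Replication genes gave 2 higher, Rfc1 (1.10) and Timeless (0.60), and 1 lower, the maintenance methyltransferase gene Dnmt1 (-0.55), of 50.

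Chromatin regulators were called in both directions. Of 64 chromatin modifiers 6 were higher (9.38%) and 9 lower (14.1%), with a list median of -0.08. The related demethylases Kdm5a and Kdm5c lay at opposite ends by their most changed called probe sets (1.59 and -1.39). Their brightest probe sets did not, at 0.06 and 0.41, and were not called. The acetyltransferase Crebbp (7.06 to 8.29 in B3, 6.92 to 7.87 in C6, -0.99 in A1), the 5-methylcytosine oxidase Tet1 (0.83), Jmjd1c (0.63), the Polycomb subunit Suz12 (0.62) and Nsd1 (0.53, dim at 3.42 and 3.39 before induction) were higher. The Polycomb reader Cbx7 (-0.97), Setd5 (-0.82), the acetyltransferase Kat2a (-0.75), the H3 lysine 9 methyltransferase Ehmt2 (-0.75), Kmt2b (-0.66), Jarid2 (-0.61), Dnmt1 and Dnmt3a (-0.54) were lower. None of the 6 higher calls and 3 of the 9 lower ones, Kmt2b, Ehmt2 and Dnmt1, came from the brightest probe set.

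Remodelling complexes, which move nucleosomes with energy from ATP, gave 7 higher and 5 lower of 44. Higher were Chd2 (5.01 to 6.35, 5.17 to 6.20, -1.14 in A1), Atrx (0.96), Srcap (0.80), Arid2 (0.59), Baz2b (0.57), Hells (0.54) and Pbrm1 (0.51). Lower were the BAF subunits Smarcd1 (9.26 to 8.41, 9.34 to 8.09, 0.99 in A1), Arid1a (-0.88) and Smarcc1 (-0.72), with Chd7 (-0.61) and Baz1b (-0.61). Arid2 and Pbrm1, the 2 higher members that belong to the PBAF form of BAF, thus stood opposite Arid1a, which is found in the other form. The brightest probe sets of Smarcd1, Arid1a, Chd7 and Arid2 carried their calls.

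RNA processing genes were also split. Of 69 splicing factors and hnRNPs 6 were higher (8.70%) and 7 lower (10.1%). The SF3 complexes, which anchor the U2 snRNP at the branch point, supplied 4 of the lower genes: Sf3a2, Sf3a1 (-0.64), Sf3b2 (-0.65, 3 probe sets called) and Sf3b4 (-0.58). Hnrnpl went from 11.44 to 10.66 and from 11.44 to 10.22, with 0.61 in A1, and Sfpq gave -0.57. Higher were Luc7l3 (0.67), Luc7l2 (0.62), Rbm39 (0.56), Taf15 (0.51, with all 4 values below the lower quartile) and Prpf38b (0.50), and 0 of these 5 calls came from the brightest probe set. Srrm2 was called both ways. Of 42 RNA polymerase II and elongation genes 3 were lower and 0 higher: Polr2a, the polymerase assembly factor Rpap1 (-0.86) and the P-TEFb cyclin Ccnt1 (-0.68), each by its brightest probe set.

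A total of 7 genes were called higher by one probe set and lower by another. The splicing protein Srrm2 had 2 probe sets higher (10.32 to 11.38 in B3 and 10.47 to 11.38 in C6 for the brighter) and 1 lower (10.17 to 9.71 and 10.40 to 9.52). The aminopeptidase Npepps went from 9.26 to 10.33 and from 9.44 to 10.10 in one probe set, and from 10.31 to 9.76 and from 10.39 to 9.71 in another. Tmem109 gave 0.63 and -1.13, the kinase Cdk16 0.55 and -0.92, the forkhead factor Foxp1 0.63 and -0.55, the corepressor subunit Tbl1x 0.51 and -0.61, and Klf6 0.54 and -0.55. In A1 each of these called probe sets moved opposite to its direction in B3 and C6. The part of each gene that a probe set covers is not given in the sources used here.

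**Figure D5:**
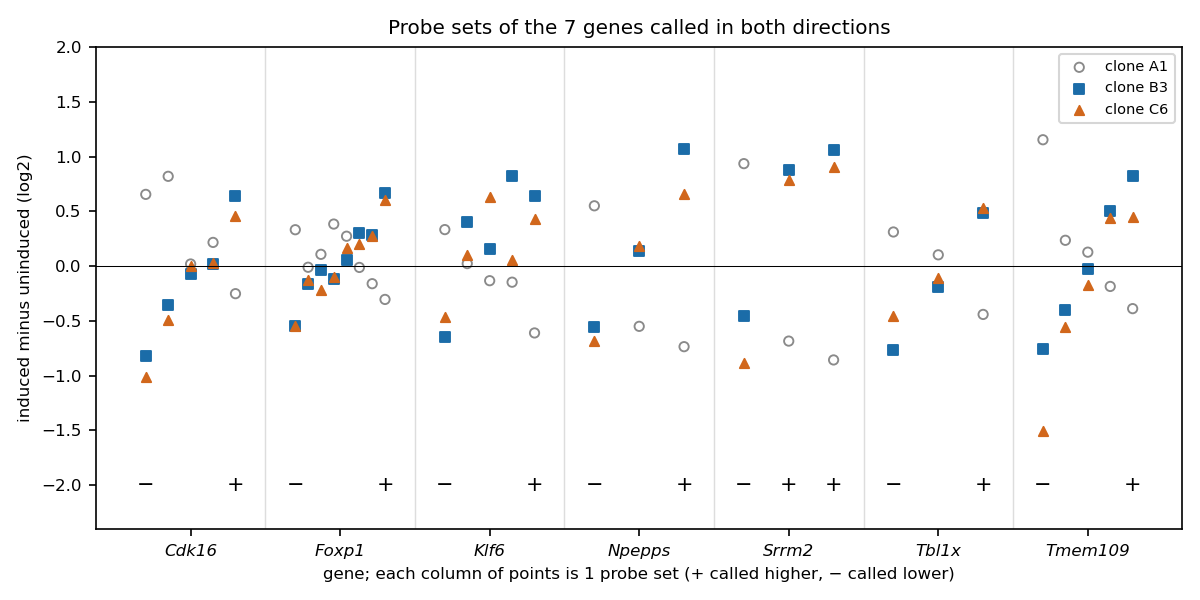
Induced minus uninduced difference (log2) in clones A1, B3 and C6 for every probe set of the 7 genes called in both directions, with 1 column of points per probe set and the called ones marked + (higher) or − (lower). For Srrm2 the mean over B3 and C6 ran from -0.67 to 0.98, and for Tmem109 from -1.13 to 0.63.

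Signalling lists gave more lower than higher calls, with most members not called. Expressed genes at large did so too, with 4.82% lower and 2.59% higher. Of 46 FGF, ERK and immediate early genes 9 were lower (19.6%) and 1 higher, with a list median of -0.06. The receptor Fgfr1 went from 8.02 to 7.42 in B3 and from 8.29 to 7.29 in C6, and the adaptor Shc1 from 9.23 to 8.71 and from 9.26 to 8.37, by its brightest probe set. The Ets factors Etv5 (-0.78) and Etv4 (-0.67), which follow FGF signalling, the exchange factor Sos1 (-0.69), Jund (-0.61), Srf (-0.61), the Ras inhibitor Nf1 (-0.61) and Klf6 completed the 9. Shc1, Etv4, Jund, Srf and Nf1 were called by their brightest probe sets. Lower calls thus took in both activators and an inhibitor of the pathway. Klf6 was the 1 higher gene too.

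Of 47 Wnt and Hippo pathway genes 6 were lower (12.8%) and 2 higher. The Wnt coreceptor Lrp5 went from 6.34 to 5.38 in B3 and from 6.59 to 4.43 in C6, with 1.10 in A1. Dvl2 (-0.86), a transducer of the Wnt signal, Axin2 (-0.64), a feedback inhibitor, the Hippo-regulated factor Tead2 (-0.67), Nf2 (-0.57) and Tcf3 (-0.97) were the others. Tcf3 is the symbol of the E2A gene, and was once also used for Tcf7l1. The counts of lower genes in this list include it, although E2A is not a member of either pathway. Tcf7l1 itself (0.50) and the kinase Lats2 (0.51) were higher, both by probe sets other than the brightest, and all 4 Lats2 values lay below the lower quartile. The brightest probe set carried the call in 5 of the 6 lower genes, all but Nf2. In the TGF-beta, Nodal and BMP list 3 of 37 were lower, each by its brightest probe set: Foxh1, the Nodal transcription factor (8.69 to 8.07, 8.50 to 7.46), Acvr2b (-0.80) and the SMAD corepressor Ski (-0.58). Of 35 LIF, STAT3 and PI3K genes 4 were lower, Akt1 (-0.83), Socs3 (-0.59), Tsc2 (-0.56) and Jak1 (-0.54), and Foxo3 (0.64) was higher. The brightest probe sets carried 2 of the 4 lower calls and that of Foxo3.

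Of 30 ES cell markers 4 were lower and 1 higher. Klf5 went from 12.21 to 11.50 and from 12.08 to 11.24, and Klf2 from 11.80 to 11.39 and from 11.98 to 11.05, both by their brightest probe sets. Esrrb (-0.82), Sall4 (-0.76) and Tet1 were called by dimmer ones, and the brightest gave -0.51 for Esrrb, -0.09 for Sall4 and 0.09 for Tet1. Pou5f1 (-0.28), Nanog (-0.12) and Sox2 (0.04) were not called. Among 16 Krüppel-like factors 5 were lower and 2 higher: Klf13 (-0.71) and Klf3 joined Klf5, Klf2 and Klf6, and Klf9 (0.60) was higher. In the imprinted list Kcnq1ot1, dim at 2.75 and 3.33 before induction, gave 1.33, whereas Peg10 (-1.28), Meg3 (-0.74), Gnas (-0.61) and Mirg (-0.56) were lower, 3 of these 4 by the brightest probe set. Zfp57 was the only lower gene of 15 in the KRAB repressor list, beside Atrx, Zfp445 (0.73) and Hells, which were higher by probe sets other than the brightest.

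Cell cycle entry and survival lists had medians near 0, -0.04 and -0.02, and gave more lower than higher calls. So did expressed genes at large (4.82% lower and 2.59% higher). Of 33 G1 cyclins, kinases and inhibitors, the transcription factors E2f4 (9.55 to 9.04 in B3, 9.63 to 8.20 in C6), E2f8 (-0.84) and E2f1 (-0.61) and the inhibitor Cdkn1b (-0.74) were lower, and Ccnd2 (0.52) and Cdkn1a (0.50) were higher. Of 36 p53 targets and apoptosis genes 5 were lower (13.9%) and 1, Cdkn1a, higher. The lower ones held both killers and protectors of the BCL2 family. Bak1, a pore-forming killer, went from 8.72 to 7.93 and from 8.39 to 6.65, with 0.77 in A1, and Bbc3 gave -0.70. The protectors Bcl2l1 and Mcl1 gave -0.76 and -0.57. The stress gene Sesn2 gave -0.52. The brightest probe sets carried 3 of the 4 lower G1 calls and 3 of the 5 lower apoptosis calls, those of Bak1, Bbc3 and Sesn2, and none of the higher ones.

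Adhesion genes gave more lower than higher calls (7.84% and 1.96%), as did expressed genes at large (4.82% and 2.59%), and genes of the actin cytoskeleton were among those called. The crosslinker Actn1 went from 8.88 to 8.23 in B3 and from 8.82 to 6.97 in C6, Vasp gave -0.76, Enah -0.81 and cofilin, Cfl1, -0.71, and of these 4 only Vasp was called by its brightest probe set. Actb (0.67) was higher by a dimmer probe set, and the array's own actin control gave 0.06 at its 3′ end. The fibronectin receptor subunit Itga5 went from 8.16 to 7.32 and from 8.07 to 6.25, and the junction protein Jup from 10.16 to 9.18 and from 9.86 to 8.29. With Ctnnd1 (-0.67) and Fbln1 (-0.56) they made 4 lower of 51 adhesion and matrix genes, against Pkp2 (0.61) higher, with 2 of the 4 and 0 of the 1 carried by the brightest probe set.

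Transport and turnover genes were mixed. Of 50 nuclear pore and transport genes 5 were lower, among them the importins Kpna4 (7.09 to 6.20, 7.32 to 5.93) and Kpnb1 (-0.83), and 3 were higher, Nup85 (0.64), Xpo7 (0.63) and Nup153 (0.57). The brightest probe sets carried 2 of the 5 and 1 of the 3. Of 85 vesicle and endosome genes 4 were lower, a share (4.71%) like that of expressed genes, led by the clathrin adaptor Ap2a1 (-1.23), and Rab2a (0.84) was higher. Here the brightest carried 3 of the 4 lower calls and not that of Rab2a. Of 53 lysosome and autophagy genes the starter kinase Ulk1 (-0.70), Atp6v0a1 (-0.82), Rptor (-0.57) and Tfeb (-0.57) were lower, and Rb1cc1 (0.87) and Mitf (0.76) higher, with Tfeb alone called by its brightest probe set. Cul5 (0.89) and Cbl were the 2 higher of 58 ubiquitin ligase genes, neither by its brightest. Usp7 (0.73) and Usp8 (0.66) were higher and Otud5 (-0.52) lower of 56 deubiquitinases, of which only Otud5 was called by its brightest. Of 49 proteasome genes 2 were higher, Psmd11 and Psme4, and 1 was lower, the activator Psme3 (-1.22). The median of that family was 0.03, and only the call of Psme3 came from the brightest probe set.

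Of 34 glycolysis and hypoxia genes 4 were lower (11.8%), 1 of them by its brightest probe set: Egln1 (-0.76), Pfkl (-0.76), the glucose transporter Slc2a3 (-0.69) and Hk1 (-0.70). Of 34 amino acid response genes Atf5 (-0.73), Aldh18a1 (-0.71), Cebpb (-0.61) and Sesn2 were lower and Atf4 (0.61) was higher, with 2 of the 4 lower calls and not that of Atf4 carried by the brightest. Srebf2 (-0.61), the regulator of cholesterol synthesis, was the 1 call of 32 sterol and fatty acid genes, by a dimmer probe set. None of 70 oxidative phosphorylation subunits or 76 mitochondrial ribosomal proteins was called by limma, and at the smallest unadjusted p stood Ndufv2 (0.34), Cox7c (-0.33), Mrpl54 (-0.43) and Mrpl44 (0.41). A symbol family of 86 mitochondrial complex subunits held 1 call, Ndufab1, which was higher by a probe set other than its brightest. No call fell among 67 F-box and 33 Kelch-like genes, of which 48 and 16 had a probe set at a mean of 6 or more. None fell among 36 Hox genes, 48 keratins or 104 chemokines and interleukins either, of which 5, 8 and 11 reached that level.

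The mouse homologue of the transgene was measured by 4 probe sets. One was called lower, from 9.70 to 9.22 in B3 and from 10.03 to 9.47 in C6, with 0.23 in A1. Another gave -0.62, with values of 6.35 and 5.47 in B3 and 6.15 and 5.78 in C6, and a further one -0.42. The brightest went from 10.69 to 10.79 in B3 and from 11.02 to 10.80 in C6. Gtf2ird1 gave -0.44 and -0.19 and Gtf2ird2 0.10. The groups overlapped only for the brightest Gtf2i probe set, for Gtf2ird2 and for the dimmer Gtf2ird1 probe set. The share of all probe sets without overlap was not counted, so nothing is read from this. Probes on this array are designed on mouse sequence, so they do not check the human transgene. Of 25 Williams-Beuren region genes, Baz1b was the other one called lower.

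The clones also differed from each other whether induced or not, a contrast that the choice of clones did not use. Its SEs and adjusted p values did depend on that choice. They rest on how far the induction differences of B3 and C6 disagree, and the clones were chosen because these moved together. The SEs and adjusted p values may therefore be too small. In the same fit 1274 probe sets were higher in C6 than in B3 (2.83%) and 360 lower (0.799%), at an adjusted p below 0.05 by limma. Gm20767 stood at 5.02 and 4.52 in B3 and at 8.33 and 8.41 in C6 (difference 3.60 ± 0.14, SE, adjusted p = 2.7e-06). AF067061 (2.94), Usp17la (2.54), the X-linked homeobox gene Rhox5 (1.98), Fgfbp1 (1.94) and the peptidase Dpp4 (1.68) were also higher in C6. Cd99, a surface glycoprotein, stood at 8.78 and 8.55 in B3 and at 5.23 and 4.93 in C6 (-3.59 ± 0.11, SE, adjusted p = 8.31e-07). Klhl13 (-1.48), the Nodal inhibitor Lefty1 (-1.42), Clca3b (-1.25), Nrros (-1.13) and the glutathione peroxidase Gpx2 (-1.11) were lower in C6. A total of 87 probe sets were called in both contrasts. The 2 arrays of a clone are 1 line at different times, so this test measures spread within these lines only. Without the time term the counts were 88 and 22, and without any 1 of the 4 arrays, the time term dropped, they were 0 to 1 and 1 to 6.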

How the data were processed

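Total RNA of mouse ES cell clones was hybridised to Affymetrix GeneChip mouse genome arrays. The deposited table holds log2 expression values, which the authors obtained by RMA with the affy package (versions not given in the sources used here). Of 45101 probe sets, 64 controls were set aside and 45037 tested. Probe sets were named through the platform annotation, updated to RefSeq symbols: 34945 had 1 symbol (18193 genes), 932 several and 9160 none. Induced and uninduced arrays of B3 and C6 were compared with limma 3.58.1 (R 4.3.3), with clone as a block, and Benjamini-Hochberg adjustment over all probe sets. The fit has 1 residual degree of freedom per probe set and 8.22 prior degrees of freedom. Same-numbered samples are the same clone, which is the basis of the block. The fit was tested on simulated data. The members and gene lists were chosen with earlier results of these data known, and no adjusted value is given over a list alone. Named genes are the 15 largest called differences each way with a mean of at least 6 (1 probe set per gene), every Gtf2i family probe set, up to 4 called members of each list (other called members named were added after their values were seen), the 6 largest C6 against B3 differences each way and the 3 probe sets either side of the threshold. A list median uses the brightest probe set of each gene. Tables and plots were made with Python 3.11.15, pandas 2.3.3 and matplotlib 3.10.9. The result of 1 gene list is not reported here. Array number, here 2 per group, limits the precision.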

Additional observations from a re-analysis of the deposited data

Results flagged for a closer look

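Control probe sets outside the gene comparisons differed between the induced and uninduced arrays of B3 and C6, with both induced values above both uninduced ones and a mean difference of at least 0.5. The 18S ribosomal RNA probe sets gave 1.88 (3′), 2.21 (5′) and 1.71 (middle). Of the polyadenylated spikes, dap gave 0.54 (AFFX-DapX-5_at), 0.54 (3′) and 0.66 (middle), lys gave 0.58 (3′) and thr 0.57 (3′). A total of 936 of the 981 called probe sets moved the other way in clone A1. The clones were chosen partly for this opposite course, and its share over all probe sets was not counted. Nothing is therefore read from that count. The difference between A1 and the other clones was not tested.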

How the results depend on the processing

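With the replicate block, limma called 392 probe sets higher and 589 lower in the induced arrays. With no replicate block it called 0 and 0 (smallest adjusted p 0.0536), and with A1 added, with or without the replicate block, 0 and 0. The numbers pair the arrays because each is 1 clone. The methods' t-test gave 3 and 2 (2926 at an unadjusted p below 0.05) and a paired test per probe set 5 and 5, and none of these was among the 981. Leaving out each array in turn, with no replicate block, gave 0 to 0 in each direction. The lone array left in a group was assumed to vary like the other group. An intensity trend gave 1133 and 1612, a filter at a mean of 6 gave 710 and 1218, 1 probe set per gene 44 and 145, an adjusted p of 0.01 gave 57 and 46, and one of 0.1 gave 883 and 1224. Quantile normalisation gave 618 higher and 775 lower, and kept all 981 calls. Median centring (298 and 569) kept 856 of them, and robust hyperparameters (376 and 550) 926.

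Among 215 called probe sets named or eligible in the lists, none changed direction under any of these settings, judged on values past the threshold or at an unadjusted p below 0.05. The block, trend, robust, brightness and threshold settings leave the mean difference of B3 and C6 as it was, so they could not reverse it. With no replicate block, with A1 added, or with the methods' t-test or the paired test, 0 of the 215 kept their call. Each of the 215 kept its call with the trend, quantile and (181 tested) brightness settings, 203 with median centring and 58 of the 85 tested with 1 probe set per gene.

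For C6 against B3 the main counts were 1274 higher and 360 lower. They were 2139 and 877 with the trend, 378 and 80 at 0.01, and 2136 and 1017 at 0.1. Without the time term they were 88 and 22, a filter at a mean of 6 gave 550 lower, and quantile normalisation 600 lower. Leaving out each array, an alternative chosen after seeing the data, gave 0 to 1 higher and 1 to 6 lower.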
